A study of Mus musculus with 34 samples.

Results

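Genes of fatty acid oxidation and known targets of the nuclear receptor PPAR-alpha were examined in mouse MYC-driven liver tumors and livers. The set holds 34 genes, chosen by symbol, and all 34 were found in each of 3 expression tables, among 46528 genes of the mixed-strain tumor table, 16140 of the FVB tumor table and 14074 of the Rag1-/- liver table. All 34 also passed the filter on low values applied to the mixed-strain table. By role, 2 members act in uptake and binding, 1 in activation, 4 in the carnitine shuttle, 10 in the mitochondrial spiral, 3 in electron transfer and 9 in peroxisomes, and 5 are other PPAR-alpha targets. The 17 members of the shuttle, spiral and electron transfer were grouped as mitochondrial and set against the 9 peroxisomal members.

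The study measured RNA by sequencing in 34 libraries of 7 groups. All tumor mice carried TRE-MYC, a MYC transgene that the liver-restricted LAP-tta activator turns on once doxycycline water is withdrawn, and tumors were collected at death. The protein made from Arid1a is part of SWI/SNF, a complex that moves nucleosomes. On a mixed background of C57/B6, 129 and FVB, 8 Het tumors (Arid1a fl/+ with Alb-cre, a Cre driven by the albumin promoter and so active in hepatocytes) were set against 8 WT tumors (floxed Arid1a without Cre), all from mice of about 90 days. On an FVB background there were 4 Homo tumors (fl/fl with Alb-cre) at about 100 days, 4 Het tumors (fl/+ with Alb-cre) at about 70 days and 4 WT tumors (floxed, without Cre) at about 55 days, so age and genotype cannot be told apart there. In every comparison with WT tumors, Cre and the deletion cannot be told apart either. The livers, called liver in the tissue label but liver tumor in the source label, came from Rag1-/- mice with LAP-tta and TRE-MYC, FVB and wild type for Arid1a, which lack mature T and B cells. At about 42 days of age and 14 days after injection, 3 had received an adenovirus encoding human ARID1A (ad-ARID1A) and 3 an adenovirus encoding Cre (ad-Cre). The liver libraries hold no other virus and no group without virus, so effects of ARID1A and of Cre cannot be told apart there. Whether every library stands for its own mouse is not in the labels, and p-values then cover only the spread among libraries, which may be technical.

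Beta-oxidation shortens fatty acids by removing acetyl-CoA. In mitochondria, long chains enter as carnitine esters through Cpt1a and Cpt2 and pass through repeated dehydrogenation, hydration, dehydrogenation and thiolysis, with electrons handed to the respiratory chain. Peroxisomes shorten very long chains with enzymes of their own. In liver, PPAR-alpha binds DNA with RXR at direct repeats of AGGTCA and raises many of these genes in fasting.

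Sequence was read for the members around which the results turn. The peroxisomal thiolase genes Acaa1b (chr9:119148023-119157093, minus strand) and Acaa1a (chr9:119339676-119350299, plus strand) are near copies, since 35.5% of the 50-base stretches of the annotated Acaa1b transcripts also occur in Acaa1a and 26.7% of those of Acaa1a occur in Acaa1b. The sources used here do not say how reads from the shared stretches were assigned, so the split between them is uncertain. The 134 bases before the RefSeq start of each gene are shown to compare the copies. The Acaa1a start in RefSeq is at position 119341294, inside the gene as GENCODE annotates it, which has transcripts from 119339676 onward, so its bases lie within the annotated gene but in none of its exons. Both come from RefSeq promoters on GRCm38.p6, at chr9:119157094-119157227 on the minus strand and chr9:119341160-119341293 on the plus strand, and the longest runs of bases that they share are 2 runs of 8 bases. Capitals mark the 1 that is at the same distance from the start in both.
Acaa1b: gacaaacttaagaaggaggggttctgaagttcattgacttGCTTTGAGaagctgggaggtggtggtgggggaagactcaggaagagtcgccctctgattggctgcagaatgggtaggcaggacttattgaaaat
Acaa1a: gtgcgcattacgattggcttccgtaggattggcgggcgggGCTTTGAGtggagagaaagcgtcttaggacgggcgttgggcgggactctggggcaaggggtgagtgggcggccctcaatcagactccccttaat

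Hadha (chr5:30118304-30155162, minus strand) and Hadhb (chr5:30155248-30184593, plus strand) encode both subunits of the mitochondrial trifunctional protein and start head to head. The 85 bases between them, chr5:30155163-30155247 read on the plus strand, are shown because both genes start at their edges.
Hadha-Hadhb: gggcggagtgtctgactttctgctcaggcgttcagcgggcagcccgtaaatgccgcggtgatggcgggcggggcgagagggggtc

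Fabp1 (chr6:71199827-71205023, plus strand), the liver fatty acid binding protein, is shown for the repeat before its start. RefSeq promoter windows, which run from before the start to shortly after it, were matched for 28 of the 34 members. The exact repeat AGGTCANAGGTCA, searched on both strands, was in none of these 28 and in 0.0481% of the promoters of 27025 genes. The looser AGGNCANAGGNCA was in 1 of 28 members (3.57%), Fabp1, and in 0.451% of all genes, with its first base at -67 from the RefSeq start. The single site AGGTCA, which also lies within the exact repeat, was in 25% of the members and 18.1% of all genes, and CACGTG, the E-box that MYC can bind, was in 3.57% of the members and 8.09% of all genes. In the bases of chr6:71199629-71199826, plus strand, capitals mark the loose repeat, which reads as AGGNCANAGGNCA on the opposite strand. The repeat is at chr6:71199812-71199824. The bases shown end just before the annotated gene start at 71199827. The RefSeq start lies further downstream, so -67 is not counted from the end of these bases.
Fabp1: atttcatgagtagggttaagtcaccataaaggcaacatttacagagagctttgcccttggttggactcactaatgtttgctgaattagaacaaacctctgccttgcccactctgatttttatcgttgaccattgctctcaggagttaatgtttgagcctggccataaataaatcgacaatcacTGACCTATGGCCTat

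The thioesterase genes that release free fatty acids from acyl-CoA lie in a row on the plus strand of chromosome 12, in the order Acot2, Acot1, Acot4 and Acot3 (chr12:83987861-83993873 for Acot2 and chr12:84009490-84018371 for Acot1). Acot1 acts in the cytosol, Acot2 in mitochondria, and Acot3 and Acot4 in peroxisomes. Acot1 and Acot2 shared 23.5% of the 50-base stretches of Acot1 and 24.5% of those of Acot2, so the split of reads between these near copies is uncertain as well.

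By the step that 1 read is worth in each table, the libraries held 2274000 to 5278000 reads in mixed-strain tumors, 6644000 to 12024000 in FVB tumors and 8722000 to 10610000 in Rag1-/- livers. Of 10 hepatocyte markers, 9 were matched in every table and were above 0 in every group. Their summed level was 2969 to 6559 CPM (reads of a gene per fixed number of reads in its library) in Het tumors, against 5455 to 11570 CPM in WT tumors, of mixed strain. In FVB tumors it was 8108 to 13570 CPM in Homo, 5253 to 11370 CPM in Het and 7917 to 14190 CPM in WT. In livers it was 71270 to 81970 CPM with ad-ARID1A and 81570 to 88250 CPM with ad-Cre. In bulk tissue, fewer cells of a type and less RNA per cell cannot be told apart, and the part of these differences in the results below was not tested. As a check of the labels, Arid1a averaged 8.07 ± 0.14 log2(CPM + 0.5) in Het and 8.47 ± 0.21 in WT mixed-strain tumors (SD, n = 8 each), with a log2 fold change of -0.41 that did not pass (limma, adjusted p = 0.08297). In FVB tumors it averaged 7.74 ± 0.23 log2 CPM in Homo, 7.77 ± 0.31 in Het and 8.09 ± 0.25 in WT (SD, n = 4 each), so the Homo and Het libraries were alike in this measure. The virus carries the human gene, so the mouse Arid1a row of the livers checks nothing.

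**Figure D1:**
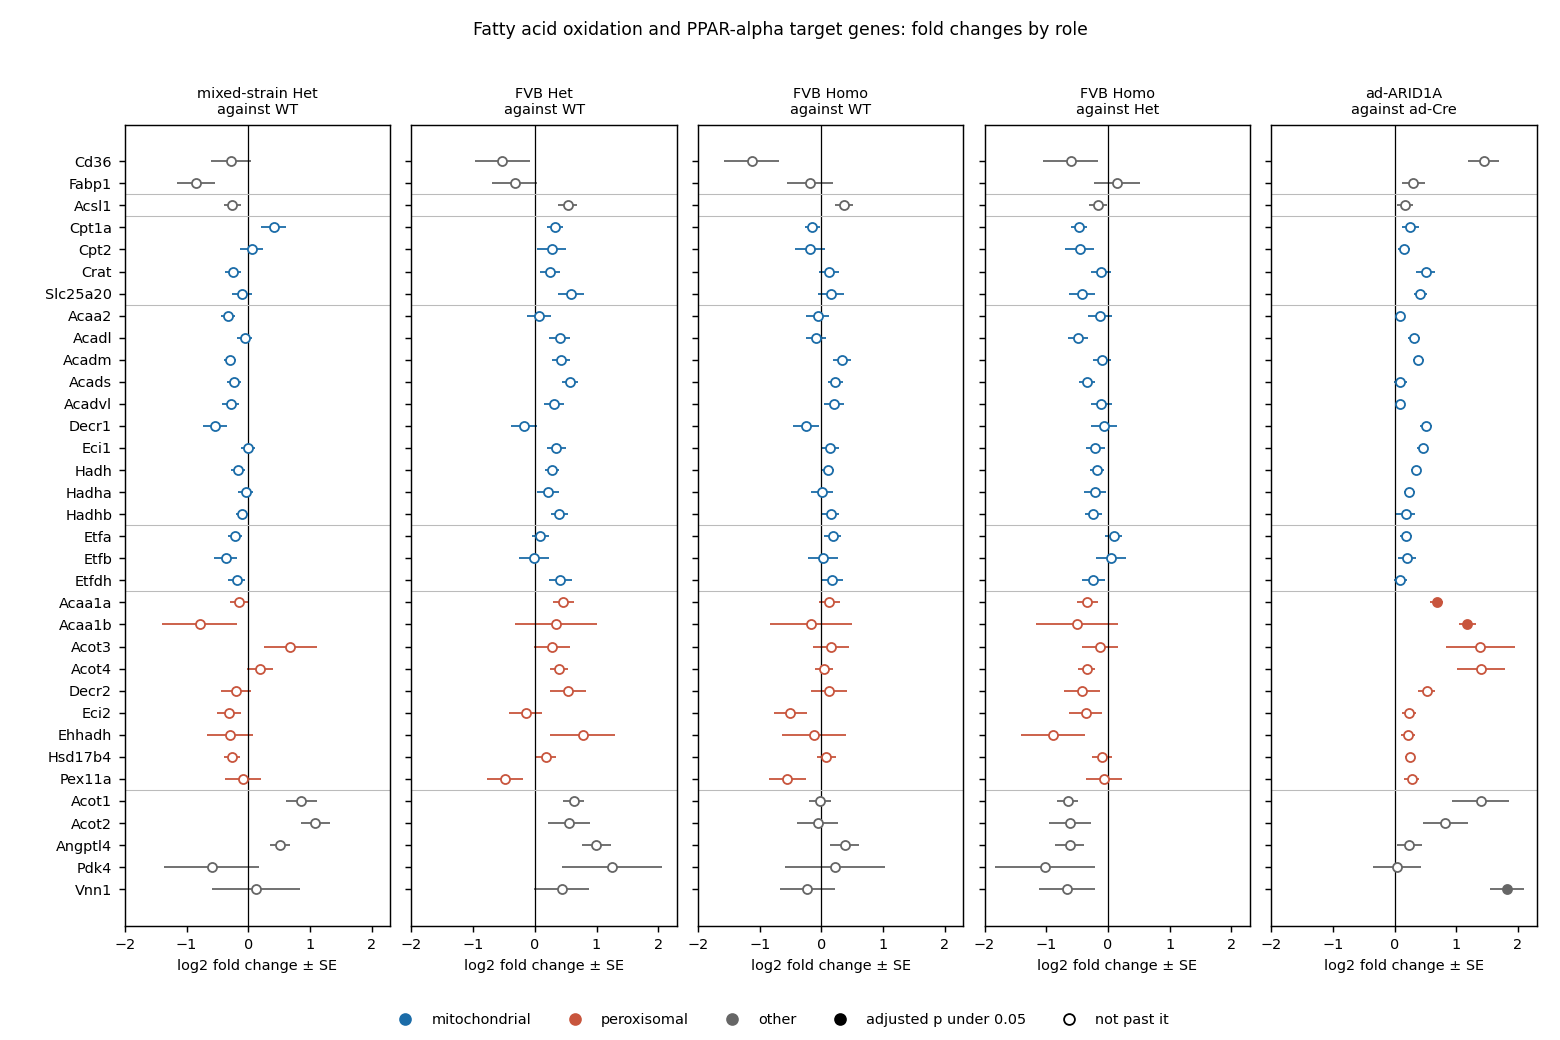
Log2 fold change with its standard error (x axis) of the 34 members (y axis, grouped by role and separated by gray lines) in the 5 comparisons. Color gives the class and filled points have an adjusted p under 0.05, which 3 members of the liver comparison reach. Nearly all points lie right of 0 in the liver comparison and in FVB Het against WT, and nearly all lie left of 0 in FVB Homo against Het.

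In Rag1-/- livers, 3 members were higher with ad-ARID1A than with ad-Cre past the threshold, the peroxisomal thiolases Acaa1b and Acaa1a and the pantetheinase Vnn1. A gene passed when its two-sided limma p, adjusted by Benjamini-Hochberg across the whole table, was under 0.05, as in each comparison below. These 3 of 34 members stand beside 0.277% of all genes called higher, and no member was called lower, beside 0.0426% of all genes. All 34 members had a log2 fold change above 0, against 66.3% of all genes. With each library centred on its median, which shifted every fold change by -0.10, 29 of 34 did, the exceptions being Acaa2, Acadvl, Acads, Etfdh and Pdk4. The median log2 fold change was 0.29 over the members and 0.09 over all genes. At an unadjusted p under 0.05, 19 members were higher, against 9.88% of all genes, and none was lower, against 2.62%. For 16 members the groups did not overlap, against 13.9% of all genes that were higher without overlap.

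Among the peroxisomal members, Acaa1b, which cleaves the last bond of each peroxisomal round, read 7.92, 7.64 and 7.50 log2 CPM in the 3 ad-ARID1A livers, against 6.55, 6.73 and 6.26 log2 CPM in the 3 ad-Cre livers. The lowest ad-ARID1A liver was above the highest ad-Cre liver, and the log2 fold change was 1.17 ± 0.14 (SE, limma, adjusted p = 0.01327). Its near copy Acaa1a read 6.90, 6.60 and 6.59 log2 CPM with ad-ARID1A, against 5.95, 6.11 and 5.98 log2 CPM with ad-Cre. These groups did not overlap either, and Acaa1a rose by 0.68 ± 0.11 on the log2 scale (SE, limma, adjusted p = 0.03342). Exons of both genes overlap a gene on the opposite strand, Dlec1 for Acaa1b and Myd88 for Acaa1a, and the sources used here do not say whether counting used strand. Dlec1 averaged 1.04 ± 0.46 log2 CPM with ad-ARID1A and 0.08 ± 0.11 with ad-Cre (SD, n = 3 each), far below Acaa1b in both groups, with an adjusted p of 0.3298 (limma). Myd88 averaged 2.91 ± 0.16 log2 CPM with ad-ARID1A and 2.86 ± 0.38 with ad-Cre (SD, n = 3 each).

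Decr2, the peroxisomal reductase for unsaturated chains, read 7.19, 7.25 and 6.95 log2 CPM with ad-ARID1A, against 6.46, 6.92 and 6.46 log2 CPM with ad-Cre. The groups did not overlap, with ad-Cre 2 just below ad-ARID1A 3, and the log2 fold change of 0.52 ± 0.14 did not pass (SE, limma, adjusted p = 0.1685). The other 6 peroxisomal members were Ehhadh, the bifunctional hydratase and dehydrogenase, Hsd17b4, with the same pair of activities on branched chains, the isomerase Eci2, the peroxisome division factor Pex11a, and the thioesterases Acot3 and Acot4. Their log2 fold changes ran from 0.22 for Ehhadh to 1.40 for Acot4, and none passed. Acot3 was listed at 0, meaning at or below 1 CPM, in all 3 ad-Cre livers and in 1 of 3 ad-ARID1A livers, where the others read 2.39 and 1.78 log2 CPM.

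Vnn1 splits pantetheine, a breakdown product of coenzyme A, and is a PPAR-alpha target of mouse liver. It read 5.48, 5.31 and 4.88 log2 CPM with ad-ARID1A, against 3.02, 4.11 and 3.08 log2 CPM with ad-Cre. Every ad-ARID1A liver was above every ad-Cre liver, and the log2 fold change was 1.82 ± 0.28, the largest of the 34 (SE, limma, adjusted p = 0.03127). The fatty acid transporter Cd36 came next among members by size and was just outside the threshold. It read 6.21, 6.20 and 5.56 log2 CPM with ad-ARID1A, against 4.78, 3.97 and 4.90 log2 CPM with ad-Cre, a log2 fold change of 1.44 ± 0.25 without overlap (SE, limma, adjusted p = 0.05457). Fabp1 was high in all 6 livers, at 10.57, 11 and 10.58 log2 CPM with ad-ARID1A and 10.57, 10.69 and 9.99 log2 CPM with ad-Cre. These groups overlapped. Pdk4, the kinase that turns off pyruvate dehydrogenase, had the smallest fold change of the 34, at 0.04 ± 0.39 (log2, SE), with overlapping groups. Angptl4, a secreted inhibitor of lipoprotein lipase, had a log2 fold change of 0.24 ± 0.20 (SE, limma, adjusted p = 0.6664).

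All 17 mitochondrial members had a log2 fold change above 0, from 0.08 to 0.51, and none passed the threshold (limma), while 8 had an unadjusted p under 0.05. Decr1, the mitochondrial counterpart of Decr2, read 6.60, 6.49 and 6.49 log2 CPM with ad-ARID1A, against 6.04, 6.12 and 5.90 log2 CPM with ad-Cre. The groups lay apart by more than their own ranges, with a log2 fold change of 0.51 ± 0.09 (SE, limma, adjusted p = 0.05479). Eci1, the isomerase that moves double bonds into place, read 5.71, 5.65 and 5.78 log2 CPM with ad-ARID1A, against 5.24, 5.31 and 5.23 log2 CPM with ad-Cre (log2 fold change 0.45, limma, adjusted p = 0.0907). Hadh, the dehydrogenase for short hydroxyacyl chains, read 7.82, 7.75 and 7.70 log2 CPM with ad-ARID1A, against 7.40, 7.42 and 7.41 log2 CPM with ad-Cre. Its ad-Cre livers were almost equal and all ad-ARID1A livers were above them (log2 fold change 0.35, limma, adjusted p = 0.1136). Acadm, the medium-chain dehydrogenase, read 7.55, 7.46 and 7.35 log2 CPM with ad-ARID1A, against 7.01, 7.01 and 7.19 log2 CPM with ad-Cre (log2 fold change 0.38, limma, adjusted p = 0.1396). Slc25a20, the carrier that exchanges acylcarnitine for carnitine across the inner membrane, read 5.97, 5.93 and 5.69 log2 CPM with ad-ARID1A, against 5.35, 5.54 and 5.45 log2 CPM with ad-Cre (log2 fold change 0.42, limma, adjusted p = 0.1643). All 4 of these members were separated and none passed. The gatekeeper Cpt1a read 8.63, 9.12 and 8.83 log2 CPM with ad-ARID1A, against 8.56, 8.80 and 8.45 log2 CPM with ad-Cre, and its groups overlapped.

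**Figure D2:**
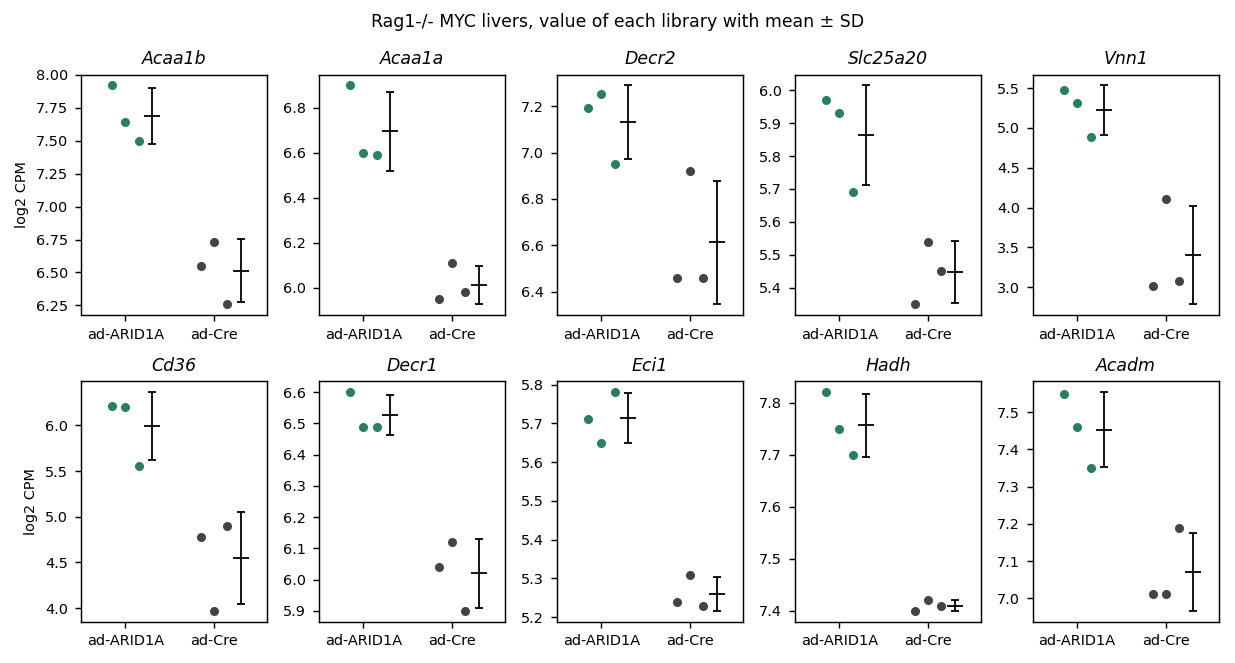
Log2 CPM (y axis) of 10 members in each of 3 ad-ARID1A and 3 ad-Cre livers of Rag1-/- mice, with points for libraries and bars for the mean ± SD. In every panel the lowest ad-ARID1A liver is above the highest ad-Cre liver, and y axes do not start at 0.

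Of 66 further genes of the pathway that were tested, 51 had a log2 fold change above 0 with ad-ARID1A, against 66.3% of all genes. Of the 66, 2 passed as higher, beside 0.277% of all genes, and none as lower, beside 0.0426%. Aldh3a2, which oxidizes fatty aldehydes, read 7.52, 7.39 and 6.64 log2 CPM with ad-ARID1A, against 5.61, 5.33 and 4.82 log2 CPM with ad-Cre (log2 fold change 1.93 ± 0.24, SE, limma, adjusted p = 0.01868). G0s2, an inhibitor of the triglyceride lipase Pnpla2, read 4.58, 5.0 and 4.55 log2 CPM with ad-ARID1A, against 2.3, 3.41 and 2.33 log2 CPM with ad-Cre (log2 fold change 2.03 ± 0.29, SE, limma, adjusted p = 0.02774). Both genes were separated between the groups. Fitm2, which helps form lipid droplets, had a log2 fold change of 0.66 ± 0.12 (SE, limma, adjusted p = 0.05479). Ppara itself read 7.27, 7.57 and 7.55 log2 CPM with ad-ARID1A, against 7.28, 7.24 and 6.73 log2 CPM with ad-Cre, with overlap. The coactivator gene Ppargc1a had a log2 fold change of -0.46 ± 0.19 (SE, limma, adjusted p = 0.3771). The fatty acid hydroxylase Cyp4a14, named after its values were seen, did not pass. It read 6.68, 2.11 and 2.71 log2 CPM with ad-ARID1A, against 0, 0.05 and 0 log2 CPM with ad-Cre, so its highest value by far was in ad-ARID1A 1. Of its relatives, Cyp4a10, Cyp4a31 and Cyp4a32 overlapped between the groups. Cyp4a12a did not, at 8.75 to 9.05 log2 CPM with ad-ARID1A and 8.48 to 8.68 log2 CPM with ad-Cre.

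The liver ad-ARID1A 1 held the highest value of its group for 21 of 34 members and ad-ARID1A 3 the lowest for 21. No member passed without ad-Cre 1, ad-Cre 3, ad-ARID1A 1 or ad-ARID1A 2, where 6, 8, 0 and 7 of all genes passed in that order, against 45 with all libraries. Without ad-ARID1A 3, 1 member and 19 of all genes passed, and without ad-Cre 2, 2 members and 15 of all genes, while 33 or 34 members kept a fold change above 0 with each library left out. With median centring Acaa1b alone passed (adjusted p = 0.02322, limma). Other measures moved with the virus as well. Myc averaged 2.98 ± 0.79 log2 CPM with ad-ARID1A and 4.38 ± 0.55 with ad-Cre (SD, n = 3 each), without overlap. How far this row reads the TRE-MYC transgene was not tested, here or in the tumors below. The 5 stellate cell and fibroblast markers summed to 321.7 to 407.1 CPM with ad-ARID1A and 168.3 to 348.7 CPM with ad-Cre. The 6 endothelial markers summed to 338.6 to 368.1 CPM with ad-ARID1A and 291.6 to 331.7 CPM with ad-Cre, without overlap. Among 28 markers measured, 8 did not overlap, beside 17.4% of all genes. Cd68, Clec4g, Oit3, Pecam1 and Dcn were higher with ad-ARID1A, and Cps1, Fgb and Marco lower. The summed levels of 6 Kupffer cell markers overlapped, at 157.4 to 222.2 CPM with ad-ARID1A and 162.4 to 237.9 CPM with ad-Cre. The part of these measures in the results on the members was not tested.

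In FVB Het tumors the pathway leaned upward against WT, but no member passed. With limma, 0 of 34 members passed, beside 0.0248% of all genes, while 28 of 34 had a log2 fold change above 0, against 52.8% of all genes. The median log2 fold change was 0.34 over the members and 0.02 over all genes. At an unadjusted p under 0.05, 14 members were higher, against 8.14% of all genes, and none was lower, against 6.07%. For 5 members all Het tumors were above all WT tumors, against 4.41% of all genes. By role, the 4 shuttle members, 9 of 10 spiral members, 7 of 9 peroxisomal members and all 5 other targets had a fold change above 0, while both uptake and binding members, Cd36 and Fabp1, had one below 0. Of the other targets, Vnn1 was listed at 0 in 2 of 4 tumors of each FVB group, and Pdk4 in 1 of 4 Het tumors.

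The member with the smallest p was Acads, the short-chain dehydrogenase, with 6.60, 6.59, 6.65 and 6.21 log2 CPM in the 4 Het tumors, against 6.0, 5.86, 6.09 and 5.83 log2 CPM in the 4 WT tumors. All Het tumors were above all WT tumors, with a log2 fold change of 0.57 ± 0.13 that did not pass (SE, limma, adjusted p = 0.09298). Acsl1, which joins long-chain fatty acids to coenzyme A, read 9.67, 9.69, 9.46 and 9.11 log2 CPM in Het tumors, against 9.03, 9.03, 8.79 and 8.96 log2 CPM in WT tumors (log2 fold change 0.53 ± 0.15, SE, limma, adjusted p = 0.1369). Hadhb, the thiolase subunit of the trifunctional protein, read 7.84, 7.80, 7.66 and 7.42 log2 CPM in Het tumors, against 7.40, 7.27, 7.14 and 7.33 log2 CPM in WT tumors. Both were separated, and in both Het 4 was the nearest to WT. Its head-to-head partner Hadha overlapped, with a log2 fold change of 0.22 ± 0.18 (SE), beside 0.40 ± 0.14 for Hadhb.

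Of the peroxisomal members, 2 were separated. Acaa1a read 6.03, 5.52, 5.55 and 5.50 log2 CPM in Het tumors, against 4.86, 5.11, 5.43 and 5.35 log2 CPM in WT tumors. Acot4 read 4.84, 4.70, 4.81 and 5.09 log2 CPM in Het tumors, against 4.51, 4.32, 4.62 and 4.43 log2 CPM in WT tumors. Here Het 4 was the highest, unlike in most members (limma, adjusted p = 0.2462 for Acaa1a and 0.2392 for Acot4). Acaa1b, called in the livers, ranged widely, at 5.83, 6.41, 6.15 and 4.03 log2 CPM in Het tumors and 6.20, 6.55, 4.98 and 3.34 log2 CPM in WT tumors.

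Of the other targets, 2 had small p-values without separation. Angptl4 read 7.06, 6.78, 6.78 and 5.96 log2 CPM in Het tumors, against 5.33, 5.77, 5.43 and 6.06 log2 CPM in WT tumors. Of the Het tumors, Het 4 lay below the highest WT tumor, and the log2 fold change was 1.0 ± 0.24 (SE, limma, adjusted p = 0.0975). Acot1 read 6.84, 6.42, 6.47 and 6.24 log2 CPM in Het tumors, against 5.64, 5.80, 5.75 and 6.26 log2 CPM in WT tumors (log2 fold change 0.63 ± 0.17, SE, limma, adjusted p = 0.134). These groups overlapped through Het 4 and WT 4.

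In FVB Homo against WT tumors the members stood near 0. With limma, 0 of 34 members passed, beside 0.0434% of all genes, and 3 had an unadjusted p under 0.05, beside 10% of all genes. The median log2 fold change was 0.06 over the members and -0.02 over all genes, and 20 of 34 were above 0, against 46.7% of all genes. Acsl1 was the 1 member higher without overlap, against 2.09% of all genes, with 9.58, 9.14, 9.45 and 9.12 log2 CPM in Homo tumors, against 9.03, 9.03, 8.79 and 8.96 log2 CPM in WT tumors (log2 fold change 0.37 ± 0.15, SE, limma, adjusted p = 0.4173). Acadm read 8.35, 7.69, 8.15 and 7.96 log2 CPM in Homo tumors, against 7.65, 7.59, 7.84 and 7.74 log2 CPM in WT tumors (log2 fold change 0.33 ± 0.15, SE, limma, adjusted p = 0.4706). Cd36 read 4.34, 4.25, 2.73 and 4.45 log2 CPM in Homo tumors, against 5.35, 6.19, 4.41 and 4.35 log2 CPM in WT tumors. Its log2 fold change was -1.13 ± 0.45 (SE, limma, adjusted p = 0.4142), and Homo 3 was far below the other 3 Homo tumors.

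Between FVB Homo and Het tumors no gene of the whole table passed (limma), so 0 of 34 members stand beside 0% of all genes, and every member had an adjusted p of 1. At an unadjusted p under 0.05, 6 members were lower in Homo, against 2.53% of all genes, and none was higher, against 1.33%. In all, 31 of 34 members had a log2 fold change below 0, against 58% of all genes, with a median of -0.29 over the members and -0.04 over all genes. For 2 members all Homo tumors were below all Het tumors, against 1.75% of all genes. Acot1 read 5.73, 5.80, 5.60 and 6.22 log2 CPM in Homo tumors, against 6.84, 6.42, 6.47 and 6.24 log2 CPM in Het tumors (log2 fold change -0.66 ± 0.17, SE). Cpt1a read 7.87, 7.73, 7.68 and 7.95 log2 CPM in Homo tumors, against 8.42, 8.32, 8.21 and 8.16 log2 CPM in Het tumors (log2 fold change -0.47 ± 0.13, SE). Both were separated, Acot1 by very little. Acadl, the long-chain dehydrogenase of mouse, read 6.07, 6.10, 5.75 and 6.46 log2 CPM in Homo tumors, against 6.85, 6.61, 6.56 and 6.31 log2 CPM in Het tumors (log2 fold change -0.49 ± 0.16, SE). The 3 FVB comparisons share libraries, so the same Het tumors stand behind the fold changes above 0 against WT and those below 0 here.

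**Figure D3:**
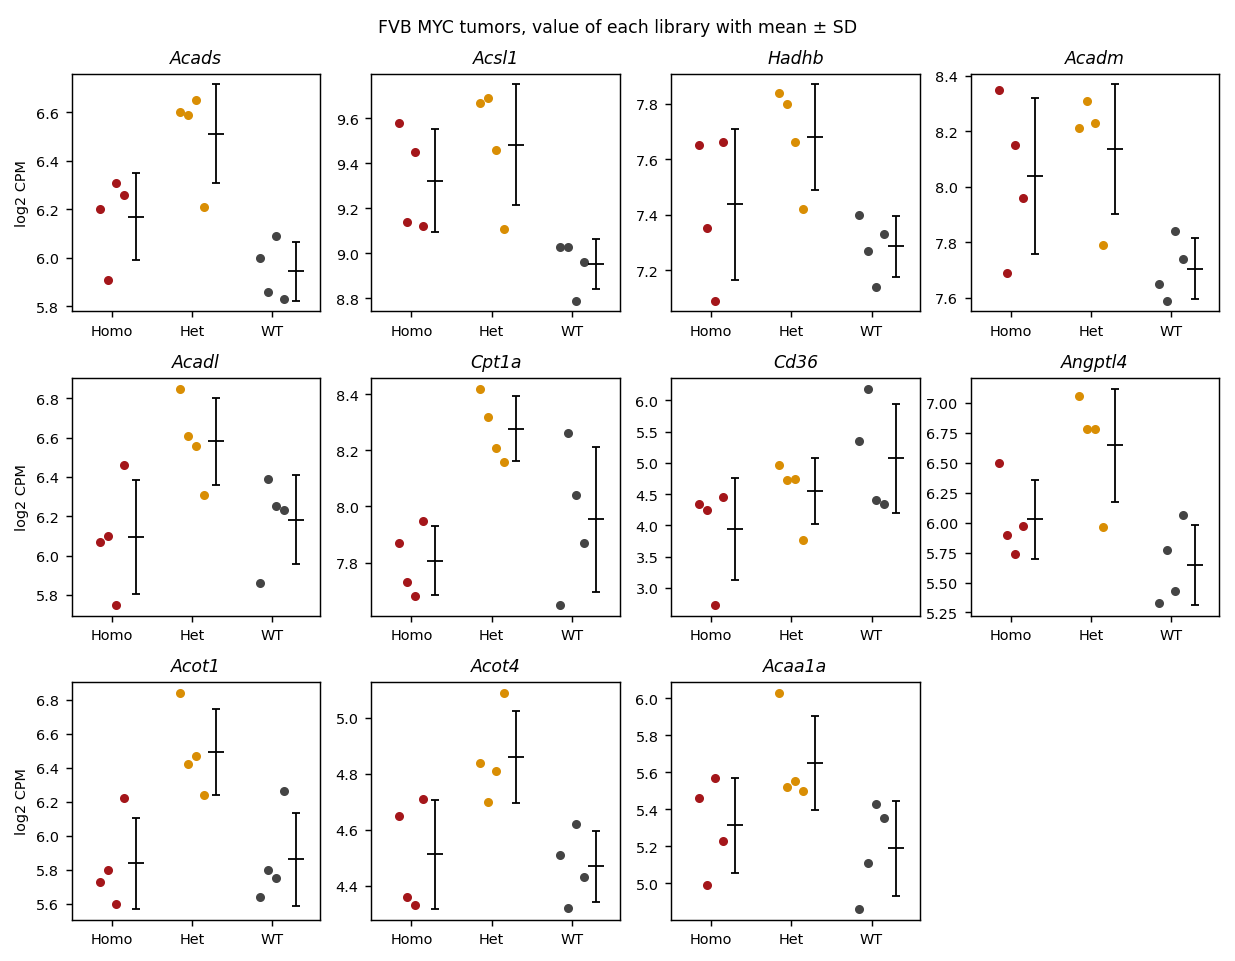
Log2 CPM (y axis) of 11 members in each of 4 Homo, 4 Het and 4 WT tumors of FVB mice, with points for libraries and bars for the mean ± SD. The Het tumors are the highest group on average in all panels but that of Cd36, and y axes do not start at 0.

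FVB Het 4 was the lowest of its group for 31 of 34 members, and Het 1 was the highest for 18. Among WT tumors, WT 4 was the lowest for 17 members and WT 2 the highest for 21. Without Het 4, 4 members passed in Het against WT, among them Angptl4, Acads and Acsl1 (limma, adjusted p = 0.02287, 0.03012 and 0.04505), and without WT 4, 2 passed, Angptl4 and Acot1 (limma, adjusted p = 0.04574 each). Over all 16140 genes, 169 passed without Het 4 and 256 without WT 4, against 4 with all libraries. The hepatocyte marker sum overlapped among the 3 genotypes. Within Het it was lowest in Het 4, at 5253 CPM, and highest in Het 1. Within WT it was lowest in WT 4 and highest in WT 2. These are the same tumors as those just named for the members. Stellate cell and fibroblast markers summed to 98.4 to 635.1 CPM in Homo, 408.6 to 564.8 CPM in Het and 388.2 to 634.5 CPM in WT tumors, and Kupffer cell markers to 86.3 to 124.1 CPM in Homo, 88.66 to 119.9 CPM in Het and 104.3 to 218.7 CPM in WT tumors. Neutrophil markers summed to 1.803 to 95.27 CPM in Homo, 0 to 1.189 CPM in Het and 2.533 to 59.5 CPM in WT tumors, with Ltf, S100a8 and S100a9 at 0 in every Het tumor. Erythroid markers summed to 7.833 to 51.9 CPM in Homo, 5.194 to 8.508 CPM in Het and 5.736 to 320.6 CPM in WT tumors, and endothelial markers to 74.46 to 152.1 CPM in Homo, 77.34 to 138.7 CPM in Het and 103 to 235.2 CPM in WT tumors. The neutrophil sum of the Het tumors lay below those of both other groups without overlap, while the other sums given here overlapped. Single markers were apart in lists with overlapping sums as well. Of 35 measured, 7 were lower in Het than in WT tumors without overlap, beside 2.47% of all genes, and none was higher. Lrat of stellate cells was at 0 to 0.29 log2 CPM in Het and 2.25 to 2.94 log2 CPM in WT tumors, and Clec4f of Kupffer cells at 0 to 2.12 log2 CPM in Het and 2.85 to 5.78 log2 CPM in WT tumors. The other 5 were Clec4g, Vsig4, Dcn, Csf3r and Ltf. In Homo against WT, Lrat, Clec4f, Clec4g and Ckm were lower and Fgb higher without overlap, beside 4.07% of all genes in either direction, and in Homo against Het, Csf3r and Slc4a1 were higher, beside 0.923%. Their part in the results was not tested. The Myc row read alike in the 3 groups, at 3.82 ± 0.24 log2 CPM in Homo, 3.85 ± 0.16 in Het and 3.81 ± 0.34 in WT (SD, n = 4 each). Whether this holds for the TRE-MYC transgene was not tested.

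Of the 66 further pathway genes, 46 had a log2 fold change above 0 in FVB Het against WT, against 52.8% of all genes. None passed (limma), beside 0.0248% of all genes. At an unadjusted p under 0.05, 9 were higher and 2 lower, against 8.14% and 6.07% of all genes. Ppara led the 66, with 6.40, 6.46, 6.21 and 5.46 log2 CPM in Het tumors, against 5.22, 5.51, 5.19 and 4.55 log2 CPM in WT tumors (log2 fold change 1.02 ± 0.31, SE, limma, adjusted p = 0.1727). Of the Het tumors, Het 4 alone was within the WT range. Slc25a42, a mitochondrial coenzyme A carrier, had a log2 fold change of 0.61 and Slc27a2, a very-long-chain acyl-CoA synthetase, one of 0.59. Ppargc1a had one of -0.38. In Homo against WT, 29 of the 66 were above 0, against 46.7% of all genes, and none passed, beside 0.0434%. At an unadjusted p under 0.05, 1 was higher and 3 lower, against 4.37% and 5.64% of all genes. There Ppara had a log2 fold change of 0.61 and Ppargc1a one of -0.61. The bile acyl-CoA synthetase Slc27a5 had one of -1.44 ± 0.47, Acad11, a dehydrogenase of very long chains, one of 0.59 ± 0.21 with separation, and G0s2 one of -0.49 ± 0.20 (SE, limma, adjusted p = 0.3074, 0.3481 and 0.416).

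In Homo against Het, 52 of the 66 were below 0, against 58% of all genes, and none passed, beside 0% of all genes. At an unadjusted p under 0.05, 3 were lower and none higher, against 2.53% and 1.33% of all genes. G0s2 read 3.47, 3.14, 3.87 and 3.58 log2 CPM in Homo tumors, against 4.51, 4.47, 4.42 and 4.17 log2 CPM in Het tumors, without overlap (log2 fold change -0.88 ± 0.20, SE, limma, adjusted p = 1). Acacb, which makes the malonyl-CoA that inhibits Cpt1a, had a log2 fold change of -0.70, and the peroxisomal transporter Abcd3 one of -0.33. Ppara had one of -0.40 and Ppargc1a one of -0.22.

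In mixed-strain tumors the list leaned the other way in Het against WT, with 26 of 34 members below 0, and no member passed. With limma, 0 of 34 members passed, beside 0.16% of all genes, and 7 had an unadjusted p under 0.05, beside 15.8% of all genes. No member was separated, beside 0.137% of all genes. The median log2 fold change was -0.19 over the members and 0.05 over all genes, and 8 of 34 members were above 0, against 56.1% of all genes. All 10 spiral members, all 3 electron transfer members and 7 of 9 peroxisomal members were below 0, while 4 of 5 other targets were above it. Values of this table are log2(CPM + 0.5), from shallower libraries, and whether the fold changes differ from those of FVB tumors was not tested, since the tables were normalized separately.

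The 3 members with the smallest p were all higher in Het. Acot2 ran from 5.61 to 6.93 log2(CPM + 0.5) with a median of 6.20 in 8 Het tumors, against 4.23 to 6.04 with a median of 5.31 in 8 WT tumors. Its log2 fold change of 1.09 ± 0.24 did not pass (SE, limma, adjusted p = 0.07976). Acot1 ran from 6.21 to 7.13 with a median of 6.73 in Het tumors, against 4.88 to 6.86 with a median of 6.12 in WT tumors (log2 fold change 0.86 ± 0.25, SE, limma, adjusted p = 0.1478). Angptl4 ran from 6.60 to 7.47 with a median of 7.24 in Het tumors, against 5.87 to 7.05 with a median of 6.67 in WT tumors (log2 fold change 0.52 ± 0.16, SE, limma, adjusted p = 0.1637). For Acot2 and Angptl4 the Het median was above every WT tumor, and the ranges of all 3 overlapped. Acot1 and Angptl4 were also among the 3 members with the smallest p in FVB Het against WT, where they had fold changes above 0 as well.

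The 4 members lower in Het at an unadjusted p under 0.05 were named after their values were seen. Acadm ran from 7.65 to 8.31 with a median of 7.98 in Het tumors, against 8.12 to 8.43 with a median of 8.26 in WT tumors (log2 fold change -0.29 ± 0.10, SE, limma, adjusted p = 0.1743). Decr1 ran from 5.19 to 6.66 with a median of 5.93 in Het tumors, against 6.0 to 6.69 with a median of 6.48 in WT tumors (log2 fold change -0.54 ± 0.19, SE, limma, adjusted p = 0.2008). Acaa2, the mitochondrial thiolase, had a log2 fold change of -0.33 ± 0.12 (SE, limma, adjusted p = 0.2159). Fabp1 ran from 4.26 to 6.81 with a median of 6.25 in Het tumors, against 6.30 to 7.69 with a median of 6.72 in WT tumors (log2 fold change -0.84 ± 0.31, SE, limma, adjusted p = 0.224). In all of these the lowest Het tumor lay below every WT tumor and the highest Het tumor lay within the WT range.

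**Figure D4:**
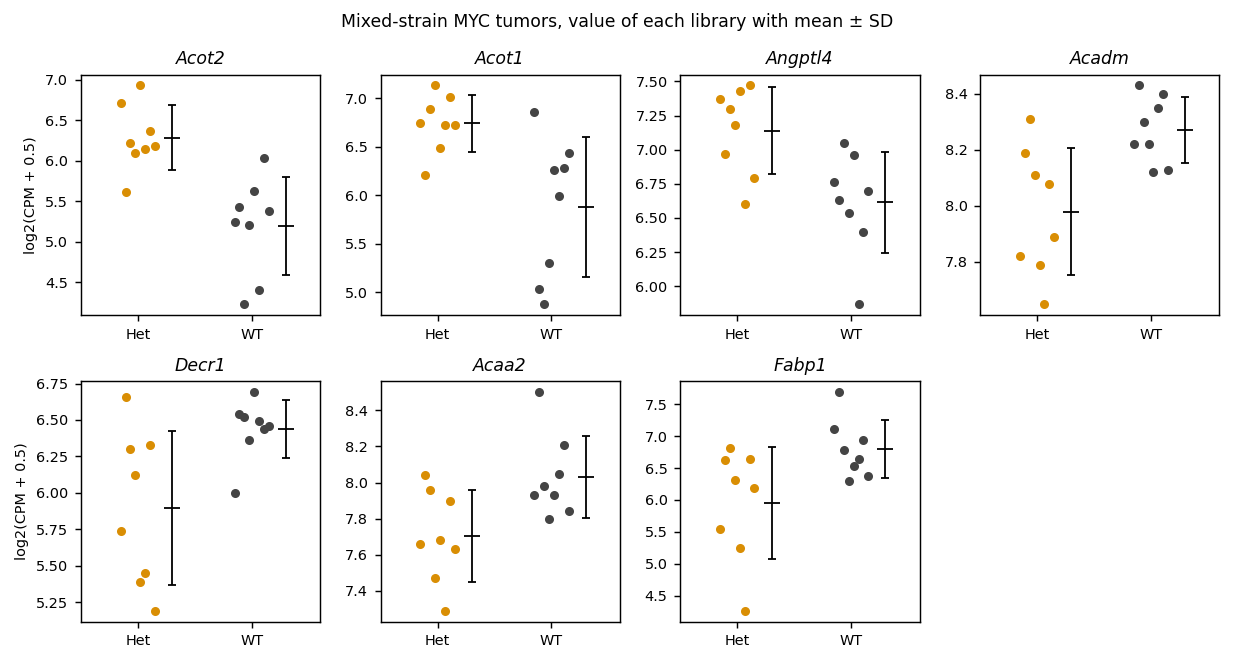
Log2(CPM + 0.5) (y axis) of the 7 members with an unadjusted p under 0.05 in 8 Het and 8 WT mixed-strain tumors, with points for libraries and bars for the mean ± SD. Acot2, Acot1 and Angptl4 sit higher in Het and the other 4 sit lower, all with overlap, and y axes do not start at 0.

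Single tumors carried much of the spread. WT tumor 2 held the highest of all 16 values for 17 of 34 members, Het tumor 6 the lowest for 13 and Het tumor 5 the lowest for 8. Acaa1b spanned 1.56 to 6.37 log2(CPM + 0.5) in Het tumors and 4.89 to 6.46 in WT tumors, and Ehhadh 3.34 to 6.75 in Het tumors and 4.79 to 6.41 in WT tumors. The hepatocyte marker sum, given above, reached lower values in Het than in WT tumors. Its lowest value was in Het tumor 6 and its highest in WT tumor 2, tumors named above for the members. The Kupffer cell marker sum also reached lower values in Het, at 128.7 to 295.1 CPM in Het and 163.5 to 649.4 CPM in WT tumors. Stellate cell and fibroblast markers summed to 161.3 to 791 CPM in Het and 157.6 to 942.5 CPM in WT tumors, and the 5 adipocyte markers were near 0 in both, at 0 to 0.2474 CPM in Het and 0 to 0.5692 CPM in WT tumors, with Plin1, Lep, Cfd and Retn at 0 in every Het tumor. Neutrophil markers summed to 5.502 to 28.07 CPM in Het and 8.443 to 101.5 CPM in WT tumors, endothelial markers to 98.75 to 287.4 CPM in Het and 134.8 to 398.2 CPM in WT tumors, and erythroid markers to 1.702 to 196.5 CPM in Het and 7.858 to 219.1 CPM in WT tumors. None of the 44 markers measured was without overlap, beside 0.137% of all genes, so overlap does not mean like levels. Some markers, named after their values were seen, reached far lower in Het. Cps1 ran from 5.32 to 10.27 log2(CPM + 0.5) in Het and 9.84 to 11.02 in WT tumors, and Stab2 from 3.47 to 5.77 and 4.95 to 6.72. Others, such as Pecam1, reached higher in Het. Their part in the results was not tested. Of the 66 further pathway genes 51 were below 0 in Het, against 43.9% of all genes, and none passed (limma), beside 0.16%. At an unadjusted p under 0.05, 18 were lower and 1 higher, against 7.5% and 8.29% of all genes. Acadsb, a dehydrogenase of branched short chains, had a log2 fold change of -0.83 ± 0.18 (SE, limma, adjusted p = 0.07976), Acat1, the acetoacetyl-CoA thiolase, one of -0.57 ± 0.15 (SE, adjusted p = 0.1281), and Phyh, which starts the breakdown of phytanic acid, one of -0.82 ± 0.25 (SE, adjusted p = 0.157). Ppara had one of -0.81 and Ppargc1a one of -1.29. The Myc row averaged 4.25 ± 0.76 in Het and 4.44 ± 0.57 in WT tumors (log2(CPM + 0.5), SD, n = 8 each), and the part of the transgene in it was not tested.

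Mitochondrial and peroxisomal members were compared by their medians and by their mean level in each library, with no test. In ad-ARID1A against ad-Cre the median log2 fold change was 0.24 over mitochondrial and 0.52 over peroxisomal members. Leaving out the 4 Acot genes, of which 2 are peroxisomal members, the difference of -0.28 became -0.04, an alternative chosen after the data were seen. The mean of the mitochondrial members was 6.89, 6.85 and 6.77 log2 CPM with ad-ARID1A, against 6.60, 6.58 and 6.54 log2 CPM with ad-Cre. That of the peroxisomal members was 6.19, 6.03 and 5.57 log2 CPM with ad-ARID1A, against 5.12, 5.42 and 5.20 log2 CPM with ad-Cre. Each mean was apart between the groups. Mitochondrial minus peroxisomal was 0.70, 0.82 and 1.20 with ad-ARID1A and 1.48, 1.16 and 1.34 with ad-Cre, so the gap overlapped through ad-ARID1A 3.

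In tumors the medians of both classes were close. In FVB Het against WT the median log2 fold change was 0.31 over mitochondrial and 0.34 over peroxisomal members, in Homo against WT 0.12 and 0.04, in Homo against Het -0.21 and -0.35, and in mixed-strain Het against WT -0.18 and -0.19. The gap between the class means averaged 1.80 ± 0.14 in Homo, 1.66 ± 0.17 in Het and 1.64 ± 0.27 in WT FVB tumors (log2, SD, n = 4 each). It averaged 1.69 ± 0.26 in Het and 1.72 ± 0.25 in WT mixed-strain tumors (log2, SD, n = 8 each). Peroxisomal members varied more within a group, but their mean level was also lower in every group, and the part of level was not tested. The median of their within-group SDs was 0.52 in mixed-strain tumors, 0.43 in FVB tumors and 0.17 in livers, against 0.25, 0.25 and 0.12 for mitochondrial members. Pdk4 and Acaa1b were among the 3 most variable members in both tumor tables, while in livers the most variable were Acot3, Acot1 and Acot4, all low there.

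**Figure D5:**
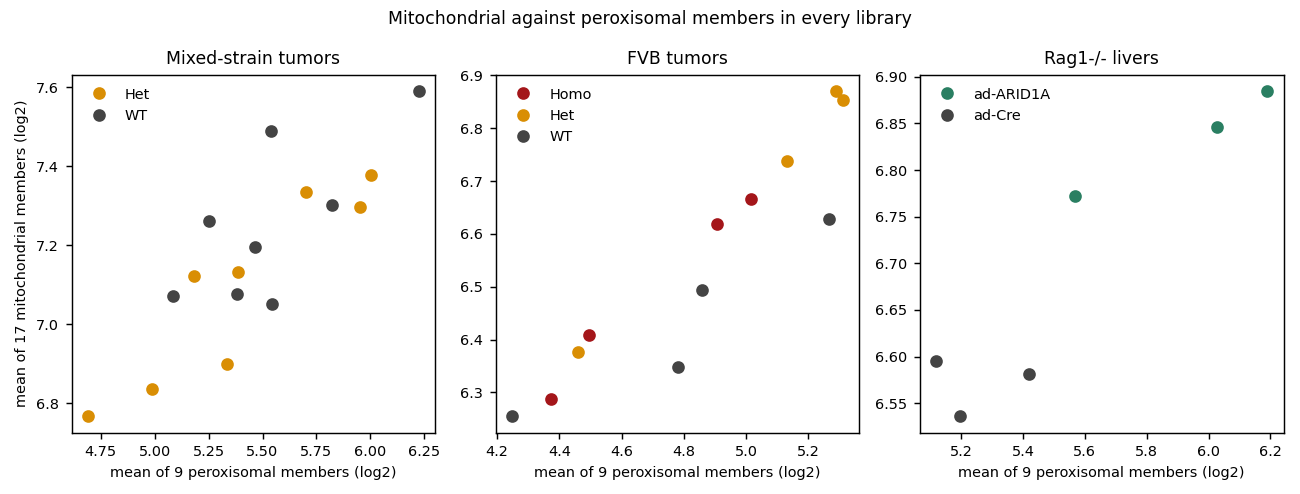
Mean of the 9 peroxisomal members (x axis, log2) against the mean of the 17 mitochondrial members (y axis, log2) in every library, 1 panel per table. The 3 ad-ARID1A livers lie above and right of the 3 ad-Cre livers, and tumor groups overlap on both axes. Het 4 is the lowest of the FVB Het tumors on both, at 6.38 log2 CPM for mitochondrial and 4.46 log2 CPM for peroxisomal members.

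Levels between genes were compared per kilobase of annotated exons, within a group, as log2 CPM per kb. Fabp1 was first in 6 of 7 groups, at 11.57 ± 0.25 with ad-ARID1A and 11.27 ± 0.37 with ad-Cre (SD, n = 3 each), and Acaa2 was second there, at 7.97 ± 0.08 and 7.89 ± 0.07. In mixed-strain Het tumors Acaa2 was first, at 7.10 ± 0.25, and Fabp1 second, at 6.81 ± 0.88 (SD, n = 8), which do not differ beyond the spread. The order at the low end differed between tumors and livers. Vnn1 ranked 34 of 34 in all 5 tumor groups but 26 with ad-ARID1A and 28 with ad-Cre, and Acot3 ranked 34 in both liver groups but 27 to 30 in tumors. Acaa1b ranked 4 with ad-ARID1A and 7 with ad-Cre, against 16 to 25 in tumors.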

How the data were processed

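Expression was measured by RNA sequencing in 16 mixed-strain tumor, 12 FVB tumor and 6 Rag1-/- liver libraries. Per the submitters' processing notes, Trim Galore, HISAT2, SAMtools and featureCounts were used with the mouse build GRCm38 (mm10). The sources used here do not give roles, versions or strand setting. The authors deposited log2 CPM for the FVB and Rag1-/- tables, with values at or below 1 CPM listed at 0. The mixed-strain table was deposited as log2 values named RPKM, but 2 to the power of the value, less 1, summed to 999553 to 999898 per library and low values stepped equally for every gene, as in CPM, so it was used as CPM, a case the planned test provided for. It was tested on log2(CPM + 0.5) for 17552 genes with a mean of at least 0.5 CPM. The other tables were tested as deposited. Fold changes understate the change of genes near these floors.

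Each table was fitted alone with limma 3.58.1 in R 4.3.3 (lmFit, eBayes with a variance trend, tested on simulated data), the 3 FVB groups in a single fit. Benjamini-Hochberg adjustment ran over all genes tested, at a threshold of 0.05, and all p-values are two-sided. Groups follow the labelled genotype, strain and virus. The treatment text words Het and Homo alike, so the genotype field was used. The labels of the ad-ARID1A libraries carry column names with ad-Cre in them, and the numbers in those names were used to find the ad-ARID1A columns.

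Named members were those past the threshold, up to 10 separated ones by smallest p, and the 3 with the smallest p. Genes of the wider pathway list were named past the threshold or among its 3 smallest p, and Ppara, Ppargc1a, Arid1a and Myc always. Cyp4a14 and its relatives in the livers were named outside this rule. Some genes that this rule names are not reported here. The members, lists and tests were chosen with earlier results of these data known. Of 69 wider pathway genes listed, 66 were tested in each table. Gene positions are from GENCODE M21 on GRCm38. Alternatives covered scaling, library weights, filters, the pseudocount, a replicate block and leaving out libraries.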

Additional observations from a re-analysis of the deposited data

Results flagged for a closer look

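Values of the named members and of the mean over the members were examined for single libraries far from the others of their group. The means of the mitochondrial and of the peroxisomal members, and the difference between them, were examined as well. This covered 115 groups of 4 (FVB) or 8 (mixed-strain) libraries, of which chance alone is expected to mark about 1 in 20. The livers, with 3 libraries a group, were not examined in this way. In 7 groups a library stood apart. The mean of the 34 members in mixed-strain Het tumor 6 was 5.76 log2(CPM + 0.5), below the next lowest at 6.17. In the mixed-strain table, Cd36 read 3.21 in Het tumor 8, below the next at 4.72, and Slc25a20 read 6.27 in WT tumor 2, above the next at 5.70. Among FVB tumors, Cd36 read 2.73 log2 CPM in Homo tumor 3, below the next at 4.25, and Acaa1a read 6.03 in Het tumor 1, above the next at 5.55. In FVB Het tumor 4, Acads read 6.21, below the next at 6.59, and Eci1 read 6.13, below the next at 6.53.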

How the results depend on the processing

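Over the settings other than leaving out 1 library at a time, 140 of 146 values stayed within their limits of change. The values were counts past the threshold, counts higher, median fold changes and class differences. The limit was a set ratio for counts and the SD among libraries of a group for the others. No value changed sign past its limit, but signs changed within it. The mitochondrial minus peroxisomal median ran from -0.0448 to 0.0788 in mixed-strain Het against WT across these settings. In FVB Het against WT it ran from -0.025 to 0.1538. These settings include leaving out mixed-strain WT 2 with Het 5, FVB WT 1 with WT 2, or the FVB group not compared. With median centring, 1 mixed-strain member passed, Acot2 (adjusted p = 0.0458), with 30 of all genes, and 1 member passed in livers in place of 3, with 35 of all genes in place of 45. With limma's library weights, 1 mixed-strain member passed (Acot2, adjusted p = 0.02982), with 101 of all genes in place of 28. In FVB Het against WT, 9 members passed, but so did 2287 of all 16140 genes in place of 4, and 1 member was higher in FVB Homo against Het. Leaving out the 4 Acot members moved the mitochondrial minus peroxisomal median in livers from the value given above to -0.0367, a choice made after the data were seen. The causes were not tested. With single libraries left out, the members past the threshold ranged from 0 to 1 in mixed-strain Het against WT (1 without WT 7 or Het 2, where 48 and 138 of all genes passed), from 0 to 4 in FVB Het against WT and from 0 to 2 in livers, and the members higher in FVB Homo against Het from 1 to 6. Deviations from the group means correlated between same-numbered libraries at -0.2 to 0.278, which cannot show whether the samples were paired. With the replicate block, 2 members passed in livers, with 59 of all genes in place of 45, and Acaa1a had an adjusted p of 0.05177 (limma). With it, 12 in place of 7 mixed-strain members had an unadjusted p under 0.05. The share of all genes under that p was not counted in this setting. There 75 of all genes in place of 28 passed the threshold, and 0 members did. Depths of 2274000 to 5278000 reads limit the precision of low members such as Pdk4 and Vnn1 in mixed-strain tumors.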
